A study of Mus musculus with 2 samples.

Results

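The genes described here are 38 neuronal RNA-binding proteins and splicing regulators, chosen by name from the 32531 gene symbols of the count tables. They comprise the CELF, ELAVL, NOVA, RBFOX, PTB, KHDRBS, MBNL, FMR1/FXR, CPEB, Staufen and Musashi families together with Qk, Pum2 and Srrm4. All 38 symbols were found in both tables. Ribosome-bound RNA was sequenced from the dentate gyrus of untreated mice, taken from Lypd1-TRAP line OI82, and the 2 libraries, both immunopurified, form 1 group. In this line (Lypd1-EGFP/Rpl10a) the ribosomal protein Rpl10a carries an EGFP tag, and polysomes from the tagged cells are captured with an anti-EGFP antibody. In such lines the tagged protein is driven by regulatory sequence of the named gene, so the purified RNA represents the cells in which that sequence is active, and not a single type by construction. The labels give neither the age, the sex nor the number of animals behind a library, nor whether animals were pooled, so the spread between the libraries may be technical. An input or untagged library was not analysed here, and every value is a level within the purified RNA. In such bulk material, fewer cells of a type and less RNA per cell cannot be told apart.

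RNA-binding proteins decide which exons a neuron keeps and how long, where and how strongly its messages are translated. RBFOX, NOVA, PTB, MBNL and CELF proteins bind short motifs in pre-mRNA near alternative exons, and ELAVL, CPEB, Pumilio, Staufen and FMRP act largely on the 3′ untranslated region or coding sequence of mature messages. Within most of these families one paralogue is broadly expressed and another is enriched in neurons, and the exchange of Ptbp1 for Ptbp2 and then the decline of Ptbp2 is a textbook step of neuronal maturation.

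Replicate 1 held 31309643 and replicate 2 held 32711412 counts on gene lines. Levels are counts per 1000000 of those counts (CPM), and a gene was called detected if neither library gave it less than 1 CPM. Where no read was counted, 3 counts remain possible, or 0.0958 and 0.0917 CPM in replicates 1 and 2, a floor that covers counting error only. The coefficient of variation between the libraries over genes at a mean CPM of at least 1 was 29.4% (edgeR, intercept only). Of the markers of dentate granule cells 8 of 8 were detected, with Prox1 at 1100.0 and 1193 CPM. Microglial markers reached the threshold in 0 of 6 cases, and C1qa and C1qb had 0 counts in both libraries. Endothelial markers (4 of 5 detected) summed to 19.7 and 18.1 CPM, and oligodendrocyte precursor markers (4 of 4) to 10.3 and 19.4 CPM. Some markers of other neurons were present too. CA pyramidal cell markers (4 of 4 detected) summed to 308 and 285 CPM, mostly from Cpne4 at 203 and 206 CPM. Interneuron markers (3 of 7) summed to 76.0 and 122 CPM, mostly from Gad1 (1566 and 2472 counts) and Gad2 (616 and 1401 counts). No other interneuron marker was above 3.16 CPM in replicate 1 or 2.17 CPM in replicate 2. Mossy cell markers (2 of 3) summed to 54.6 and 33.8 CPM, mostly from Ajap1. The others of that list were at most at 3.55 and 1.44 CPM. The part of these other neurons in the levels below was not tested.

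As a whole the set stood above the median of detected genes, as did most of the related lists described below. Of the 38 genes 37 were detected, against 38.1% of all gene lines. Their median level was 113 and 124 CPM in replicates 1 and 2 (116 CPM for the means), against a median of 22.5 CPM over all detected genes. Divided by the length of the union of annotated exons, the median was 11.4 and 13.6 CPM per kilobase, against 5.33 and 4.95 for detected genes. On that scale 30 of 38 stood above the median of detected genes and 10 of 38 lay at or above the 90th percentile. Together the 38 genes drew 0.965% and 0.917% of all counts on gene lines. Rbfox1 and Celf2 alone held 35.8% and 35.6% of these. Mbnl3 was the member below the threshold of detection and Msi1 was the lowest detected.

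**Figure D1:**
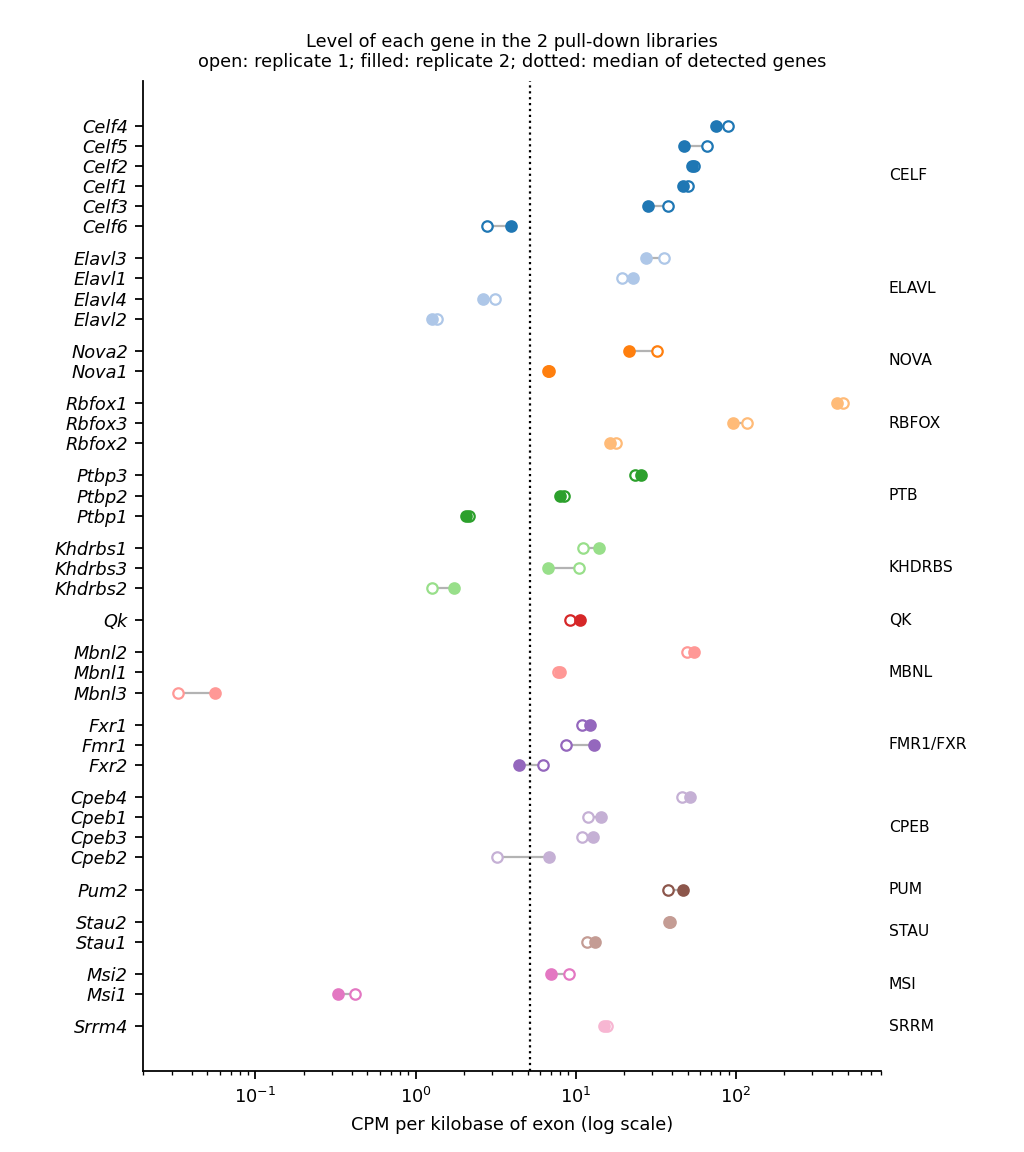
Level of each of the 38 genes in CPM per kilobase of exon (log axis), grouped by family, with open circles for replicate 1 and filled circles for replicate 2; the dotted line is the median of detected genes, 5.15. Rbfox1 stands alone at 466 and 429.7, and Mbnl3 lies at 0.0329 and 0.0559.

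RBFOX proteins recognise UGCAUG and place neuronal exons according to the side on which they bind. Rbfox1 (chromosome 16, 5885355 to 7411526, plus strand, GRCm38) was counted at 2048 and 1891 CPM in replicates 1 and 2 and ranked 26 among all gene lines. Rbfox3, which encodes the neuronal nuclear antigen NeuN (chromosome 11, 118489762 to 118911597, minus strand), stood at 681 and 555 CPM. The more broadly expressed Rbfox2 was at 145 and 133 CPM. Per kilobase of exon, Rbfox1 exceeded Rbfox3 3.98-fold and 4.50-fold and Rbfox2 26.2-fold and 26.3-fold in the 2 libraries. No value of a lower member reached that of a higher one in either library. Rbfox1 made up 77.5% and 79.4% of the family's summed level per kilobase.

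CELF proteins bind UGU-rich sequence and regulate splicing, decay and translation. Celf2 (chromosome 2, 6539694 to 7509563, minus strand) was the second member of the whole set by CPM, at 1411 and 1377 CPM. Celf4, a neuronal member, stood at 771 and 646 CPM. Celf1, the broadly expressed member, was at 425 and 396 CPM and Celf5 at 439 and 315 CPM. Celf3 was lower, at 207 and 154 CPM, and Celf6 was near the bottom of the set, at 10.1 and 14.2 CPM. Per kilobase of exon union Celf4 led the family with 89.8 and 75.2, while Celf5 (65.8 and 47.2) and Celf2 (54.5 and 53.2) overlapped. The place of Celf2 rests on the gene model. Its 28 annotated transcripts cover 25.9 kilobases of exon but the longest spans 8.86 kilobases, and on the longest transcript its mean level was 157 CPM per kilobase against 177 for Celf4 and 85.8 for Celf5. Celf6, at 2.79 and 3.93 CPM per kilobase, was the family's 1 gene below the median of detected genes.

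NOVA proteins bind clusters of short CA-containing motifs and shape synaptic isoforms. Nova2 was at 268 and 179.7 CPM and Nova1 at 59.8 and 58.9 CPM. Per kilobase Nova2 exceeded Nova1 4.69-fold in replicate 1 and 3.19-fold in replicate 2. The Nova2 value is uncertain, since 31.7% of its exon bases overlap an annotated gene on the opposite strand and the strand setting of the counting is not given in the sources used here.

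The PTB family represses exons through pyrimidine-rich tracts. Ptbp1, the form of non-neuronal cells and progenitors, was at 10.2 and 9.81 CPM. Ptbp2, its neuronal counterpart, was at 77.0 and 73.1 CPM. Ptbp2 exceeded Ptbp1 3.91-fold and 3.85-fold per kilobase of exon union, 5.92-fold and 5.84-fold per kilobase of longest transcript, and 7.56-fold and 7.45-fold in CPM. The highest member was neither of these but Ptbp3, a paralogue best known from blood cells, at 176 and 191 CPM. Per kilobase of exon union Ptbp3 took 69.0% and 71.8% of the family's level and stood at 10.9 and 12.3 times Ptbp1. On the longest transcript its share was lower, at 55.2% (mean of the libraries), and it stood at 7.98 and 8.99 times Ptbp1. On that scale its mean level was 26.8 CPM per kilobase against 18.6 for Ptbp2, so the size of its lead depended on the length model. As for Nova2, 20.7% of the exon bases of Ptbp1 overlap genes on the opposite strand.

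MBNL proteins, which are sequestered by repeat RNA in myotonic dystrophy, were represented by Mbnl2, the main brain form. Mbnl2 was at 593 and 656 CPM, and Mbnl1, the main form of muscle, at 146 and 150.0 CPM. Mbnl2 exceeded Mbnl1 6.34-fold and 6.83-fold per kilobase. Mbnl3 had 9 and 16 counts, which is 0.287 and 0.489 CPM. Those counts lie above the floor of 3 counts, and the 95% counting interval of their log2 ratio ran from -0.41 to 2.22.

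The remaining splicing regulators were at middle levels, except Khdrbs2, which lay below the median of detected genes. Khdrbs1, which encodes Sam68, was at 71.4 and 90.0 CPM, and its neuronal relatives Khdrbs3 (SLM2) and Khdrbs2 (SLM1) were at 38.6 and 24.7 CPM and at 12.9 and 18 CPM. Per kilobase Khdrbs1, at 11.1 and 14, lay above Khdrbs3, at 10.5 and 6.74, in both libraries. Srrm4, the activator of neuronal microexons, was at 137 and 131 CPM. Its relative Srrm3, which is not one of the 38, stood at 14.1 and 9.26 CPM.

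Qk encodes the STAR protein Quaking, known for its role in myelinating glia and astrocytes. It was at 131 and 153 CPM, or 9.20 and 10.7 CPM per kilobase, close to Khdrbs1. Glial transcripts were present in the same libraries. The 7 astrocyte markers summed to 87.4 and 117 CPM with 6 detected, and the 6 oligodendrocyte markers, all detected, to 189.7 and 143 CPM. None of these markers was at 0, and Aldoc (26.4 and 30.9 CPM) and Mbp (126 and 99.3 CPM) were among the highest of their lists. The part of glial RNA in the level of Qk was not tested.

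ELAVL proteins bind AU-rich and U-rich elements and stabilise messages. Elavl1, the ubiquitous HuR gene, was at 202 and 237 CPM. Among the 3 neuronal paralogues, Elavl3 (HuC) was at 244 and 188 CPM, whereas Elavl4 (HuD) was at 16.9 and 14.2 CPM and Elavl2 (HuB) at 11.3 and 10.5 CPM. The neuronal level was thus carried by Elavl3. Per kilobase of exon union the 3 neuronal genes together stood at 2.04 times Elavl1 in replicate 1 and 1.37 times in replicate 2. The order of Elavl3 and Elavl1 depended on the length model, since on the longest transcript Elavl3 was 1.38 times Elavl1 in replicate 1 and 0.911 times in replicate 2.

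FMRP and its relatives associate with polysomes and restrain translation. Fmr1, whose loss causes fragile X syndrome, was at 78.0 and 117 CPM, Fxr1 at 71.9 and 79.7 CPM and Fxr2 at 23.4 and 16.7 CPM. Per kilobase Fxr1 was at 11.0 and 12.2 and Fmr1 at 8.70 and 13.0, so the values overlapped and these genes could not be ordered. Fxr2 was below both in each library.

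CPEB proteins bind the cytoplasmic polyadenylation element and couple it to translation at synapses. Cpeb4 was at 295 and 331 CPM, Cpeb3 at 81.5 and 94.8 CPM, Cpeb1 at 50.2 and 60.0 CPM and Cpeb2 at 25.1 and 52.8 CPM. Cpeb4 accounted for 63.9% and 60.5% of the family per kilobase. Cpeb1 and Cpeb3, at 12 and 14.3 and at 11.0 and 12.8 CPM per kilobase, overlapped across libraries.

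Pum2, a repressor that recruits deadenylases to messages with a Pumilio element, was at 273 and 339 CPM. Stau2, the Staufen form enriched in neurons and part of dendritic transport granules, was at 257 and 262 CPM, and the ubiquitous Stau1 was at 70.8 and 79.8 CPM. Stau2 exceeded Stau1 3.26-fold and 2.95-fold per kilobase. Of the Musashi genes, which are known from progenitors, Msi2 was at 94.1 and 72.9 CPM and Msi1 at 2.43 and 1.90 CPM. The Msi1 values rest on 76 and 62 counts, and Msi2 exceeded Msi1 21.6-fold and 21.4-fold per kilobase. Of the progenitor and immature neuron markers, 5 of 8 were detected, with Eomes and Igfbpl1 at 0 counts and the list summing to 191 and 430.0 CPM. Sox11 made up 63.3 and 312 CPM of this, and Neurod1 114 and 105 CPM. The higher sum in replicate 2 thus lay in Sox11. For the 5 markers at a mean CPM of at least 1, the median log2 ratio of replicate 2 to replicate 1 was -0.03. The part of such cells in the Musashi levels was not tested.

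Across the 11 families of at least 2 genes, 9 had their members in the same order per kilobase in both libraries. The exceptions were CELF and FMR1/FXR. Of 24 neighbouring pairs within families, 21 did not overlap between libraries, and the pairs that did were Celf5 with Celf2, Fxr1 with Fmr1, and Cpeb1 with Cpeb3. In the order of all 38 genes, 15 of 37 neighbours did not overlap. Such counts of order and overlap were not made for other genes, so no background is given for them. The highest member per kilobase was the same for 11 of 11 families on the longest transcript, and for 8 of 11 in uncorrected CPM, where Celf2, Elavl1 and Fmr1 led. Exact sharing of sequence with other genes was checked. No stretch of 50 bases in the longest transcripts of 23 of the 38 genes occurred in a transcript of another gene, and for the remaining genes the gene sharing most was never another of the 38. Further sharing genes, up to 458 for Nova2, were counted but not named. Lesser sharing between paralogues was thus not checked for those remaining genes.

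The 2 libraries were then compared gene by gene. Log2 ratios of replicate 2 to replicate 1, with totals scaled by TMM and a prior count of 2, compare 2 libraries and not conditions, and carry no p-value. Of the 37 genes at a mean CPM of at least 1, 2 were at least 1.5-fold higher in replicate 2, where 12.6% of all 13089 genes were. None of the 37 was at least 1.5-fold higher in replicate 1, where 14.3% of all genes were. The median log2 ratio was 0.06 (-0.01 for all genes) and the median size of the ratio 0.26 (0.33 for all genes). With library totals in place of TMM the counts became 1 and 1, against 9.63% and 18.1% of all genes, and the members' median -0.04. That scaling also changed the number of members with a ratio above 0 from 22 to 17, so the sign of the small ratios depends on the scaling. The set and all genes compared stand at unlike levels, with medians of 116 and 19.9 CPM. Among genes at a mean CPM of at least 10, with TMM, 2 of 36 members were higher in replicate 2 and 0 in replicate 1. Of all 8442 genes at that level, 9.44% and 7.12% were.

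**Figure D2:**
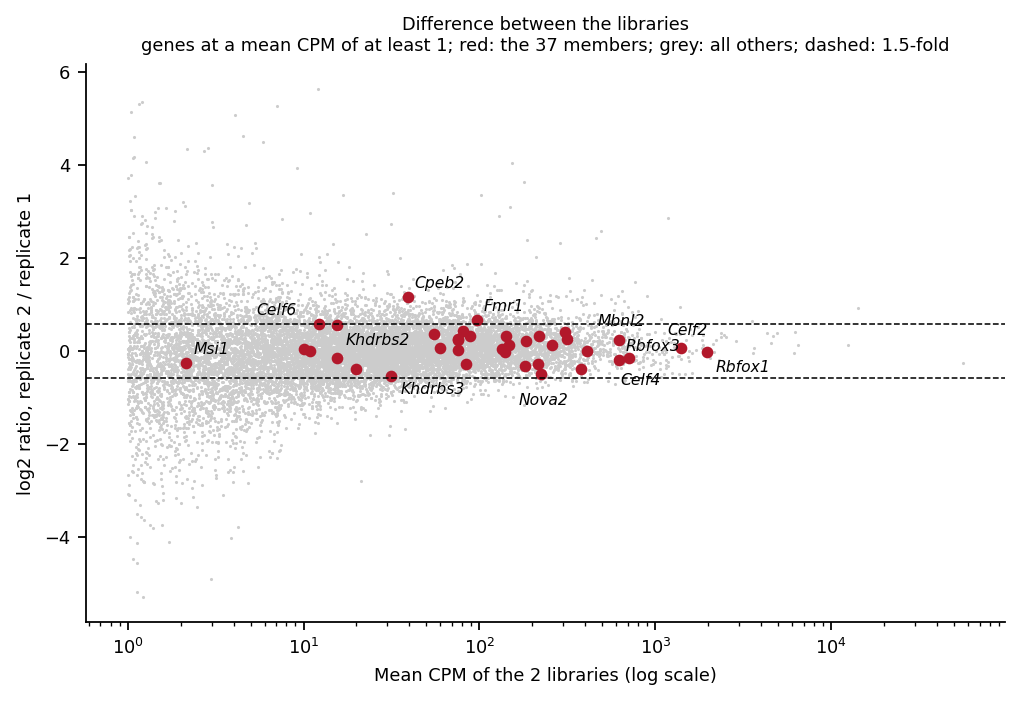
Log2 ratio of replicate 2 to replicate 1 against mean CPM (log axis) for all 13089 genes at a mean CPM of at least 1, with the 37 genes of the set in red and 1.5-fold marked by dashed lines. Cpeb2 (1.16) and Fmr1 (0.67) lie beyond 1.5-fold and the genes at the highest levels, Rbfox1 and Celf2, lie at -0.02 and 0.06.

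Cpeb2 (chromosome 5, 43233170 to 43289724, plus strand) differed most, with 786 counts in replicate 1 and 1728 in replicate 2. That is 25.1 and 52.8 CPM, a log2 ratio of 1.16 (95% counting interval 1.04 to 1.29). It was the 1 member at least 2-fold higher in replicate 2, as 4.51% of all genes were, and 0 members were 2-fold higher in replicate 1, as 5.75% of all genes were. The other CPEB genes had ratios of 0.26 to 0.35. Fmr1 (chromosome X, 68678541 to 68717963, plus strand) had a log2 ratio of 0.67 (0.60 to 0.75), and fell to 0.58, below 1.5-fold, with library totals alone. Just short of 1.5-fold were Celf6 (0.58), Khdrbs2 (0.56), Khdrbs3 (-0.55) and Nova2 (-0.49). The libraries also differed in the activity-regulated genes Arc, at 33.2 and 265 CPM, and Egr3, at 304 and 2071 CPM. Whether neuronal activity had a part in the difference of Cpeb2 was not tested.

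The base composition of the transcripts moved with the ratios. Of the 26 genes whose longest transcript had a GC content below 49.3%, the median over genes compared, 19 had a ratio above 0 and their median was 0.22. Of the 11 at or above it, 3 did, with a median of -0.26. Of all genes, 3573 of 6178 below that GC content and 2482 of 6178 at or above it had a ratio above 0, with medians of 0.08 and -0.12. Another scaling shifts both sides alike. Across the 37 genes, which share their libraries and are not replicates, Spearman's rho between GC content and the ratio was -0.36 (Pearson's r -0.33), and over 12356 genes it was -0.22 (-0.16). On the GC-rich side Nova2 (56.3% GC) had a ratio of -0.49 and Fxr2 (58.5%) of -0.39, but Celf6 (58.3%) had one of 0.58. On the other side Fmr1 (39.2%) had a ratio of 0.67 and Pum2 (42.2%) of 0.40, but Khdrbs3 (41.4%) had one of -0.55. With a fit on GC content and exon length removed, Cpeb2 and Celf6 were beyond 1.5-fold towards replicate 2 and Khdrbs3 towards replicate 1. Of all genes, 12.2% and 11.9% were. Fmr1 was at 0.53 after that fit.

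**Figure D3:**
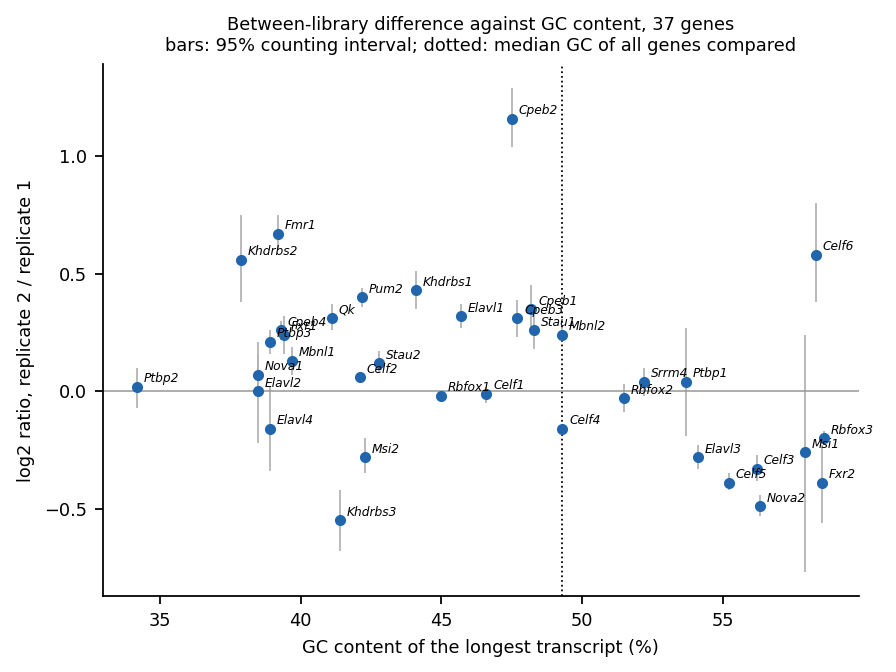
Log2 ratio of replicate 2 to replicate 1 against the GC content of the longest transcript for the 37 genes, with 95% counting intervals as bars and the median GC content of all genes compared, 49.3%, as a dotted line. Of the 26 genes left of the line 19 lie above 0, and of the 11 to the right of it 3 do.

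The wider machinery of splicing and message control was examined for context. The 26 hnRNP genes, which encode abundant nuclear RNA-binding proteins, were all detected, with a median of 167 CPM and 21.8 CPM per kilobase. In that list replicate 2 was at least 1.5-fold above replicate 1 for 14 of 26 genes and below it by that fold for 1 (12.6% and 14.3% of all genes), with a median log2 ratio of 0.62. With library totals alone 12 were above and 1 below (9.63% and 18.1% of all genes), and after the GC and length fit 13 were above and 1 below (12.2% and 11.9%). Hnrnpa2b1, a transport granule component, was at 407 and 771 CPM (log2 ratio 1.02) and Hnrnpa0 at 174 and 370.3 CPM (1.18). Pcbp4 went the other way, at 7.25 and 3.27 CPM (-1.04). Many hnRNP genes have processed pseudogenes, and their counts are uncertain to that extent.

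SR proteins promote exon inclusion. By the same measure 6 of 16 genes were higher in replicate 2 and 0 lower (12.6% and 14.3% of all genes), with a median of 0.45. With library totals alone 4 were higher and 1 was lower (9.63% and 18.1% of all genes). Srsf5 was at 237 and 482 CPM (1.12), Tra2a at 38 and 92.2 CPM (1.37), and Srrm2, the highest of the list, at 2110.1 and 2329 CPM. Of 13 core spliceosome genes 2 were higher and 1 lower, against 12.6% and 14.3% of all genes, with a median of 0.13. With library totals alone 1 was higher and 1 lower. Sf3b1, a component of the U2 particle, was at 369 and 745 CPM (1.11) and Prpf8 at 253 and 269.5 CPM, and Snrpn, whose locus is imprinted, at 3.64 and 1.07 CPM (-1.62).

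Of the 27 genes of mRNA transport, decay and translational control 25 were compared. There 5 were higher by that fold in replicate 2 and 0 lower (12.6% and 14.3% of all genes), and with library totals alone 4 were higher and 1 was lower (9.63% and 18.1%). Samd4, a Smaug repressor gene, was at 19.4 and 185 CPM (3.34), Ybx1 at 186 and 330.1 CPM (0.92) and Cyfip2, which encodes an FMRP partner, at 1740.4 and 1649 CPM. Of the 8 genes linked to motor neuron disease and ataxia 1 was higher, a share like that of all genes (12.6%), and the highest per kilobase were Ewsr1 (258 and 288 CPM) and Atxn1 (476 and 501 CPM). Among splicing regulators of other tissues 3 of 7 were detected and A1cf and Esrp2, of liver and epithelium, had 0 counts. Rbm24, a muscle regulator, was the exception at 73.0 and 64.2 CPM. In these same counts the neuronal regulators had 2 of 37 genes beyond 1.5-fold, and whether the lists differ from one another was not tested.

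**Figure D4:**
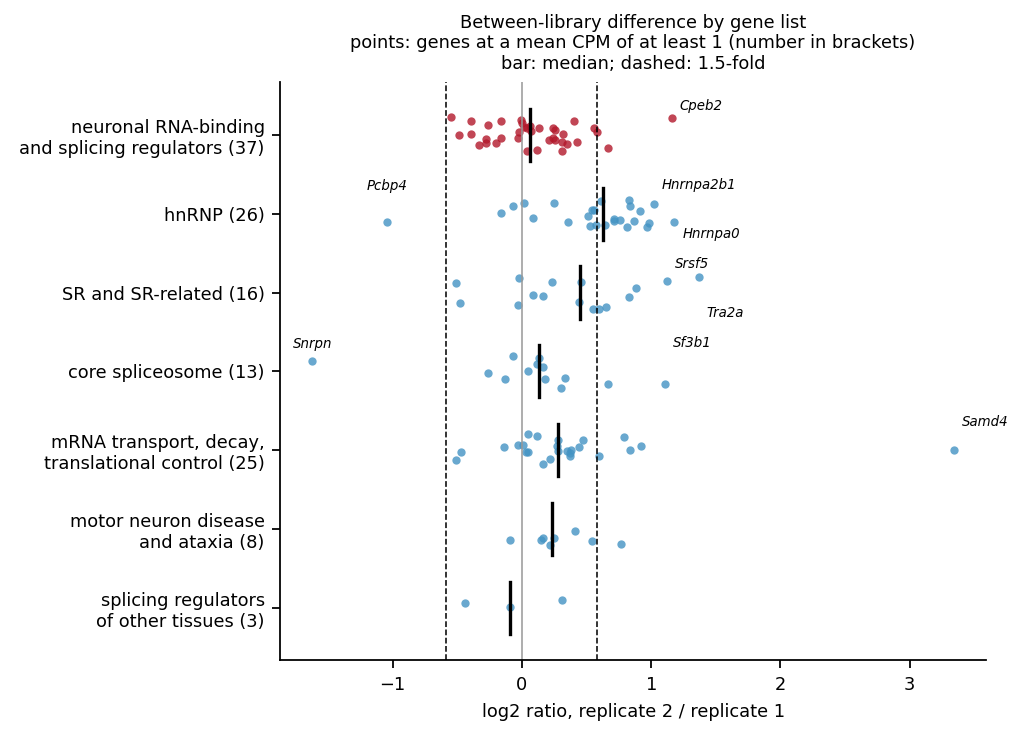
Log2 ratio of replicate 2 to replicate 1 for the 37 neuronal regulators (red) and 6 lists of other RNA-binding and splicing genes (blue), each point a gene at a mean CPM of at least 1, with the list median as a bar and 1.5-fold dashed. The hnRNP median is at 0.62 and that of the neuronal regulators at 0.06.

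Many of these proteins are known to act on each other's messages, so the recognition motifs of 6 families were sought in the messages of the set. The window was the 1000 bases after the stop codon in the longest coding transcript of GENCODE M21 (GRCm38), on the sense strand, which 36 of 38 genes and 6764 detected genes had. The Pumilio element UGUANAUA occurred in 12 of 36 genes (33.3%), against 18.4% of detected genes. UGCAUG, the RBFOX motif, was in 13 of 36 (36.1%, against 29.1%) and UUUUAU, the CPEB element, in 22 of 36 (61.1%, against 53.4%). ACUAAC, the core bound by Quaking, was in 6 of 36 (16.7%, against 13.6%). A CELF-type UGUNUGU was in 17 of 36 (47.2%, against 57.1%). An ELAVL-type UUUNUUU was in 32 of 36 (88.9%, against 73.7%). Windows of the set had a median AT content of 59.1%, against 55.3%, and AT-rich motifs are met more often in AT-rich sequence. A match shows only that the letters are present.

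Pumilio elements are printed for the 2 genes with more than 1 match and for 3 genes described above, picked after their values were seen, with the element in capitals and 9 bases on either side. Pum2 itself held 2, at chr12:8750156-8750181 and chr12:8750409-8750434 on the plus strand, and Msi2 held 2, at chr11:88344449-88344474 and chr11:88343812-88343837 on the minus strand. Cpeb2, which differed most between the libraries, held 1 at chr5:43286405-43286430 (plus strand), Ptbp1 1 at chr10:79864160-79864185 (plus strand) and Mbnl2 1 at chr14:120429000-120429025 (plus strand). All lie in 3′ untranslated exons.
Pum2, upstream site: uuauagagaUGUAUAUAgaauuauag
Pum2, downstream site: guacagaauUGUAUAUAcuuauaauu
Msi2, upstream site: uuuuaaacgUGUAUAUAauccaugau
Msi2, downstream site: aaaaaauguUGUAAAUAuaauuccau
Cpeb2: uuuucagugUGUACAUAaacuaaaaa
Ptbp1: guggaagagUGUAAAUAuuuaugauu
Mbnl2: cauuguuacUGUACAUAuuaccccgu

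Cpeb2 also carried 4 matches to the RBFOX motif in its window, more than any other of the 36 genes, and Rbfox3 carried 1 in its own message. The Cpeb2 matches start 41, 730, 759 and 876 bases after the stop codon, at chr5:43285978-43286001, chr5:43286667-43286690, chr5:43286696-43286719 and chr5:43286813-43286836 with their flanks. The Rbfox3 match is at chr11:118492044-118492067 on the minus strand. They are shown with UGCAUG in capitals, since Rbfox1 was the highest gene of the set.
Cpeb2, match at base 41: aggaaagggUGCAUGuggcuuacu
Cpeb2, match at base 730: gugaaacaaUGCAUGuuuacuuac
Cpeb2, match at base 759: uccaccauaUGCAUGcacucggac
Cpeb2, match at base 876: aagcaaacuUGCAUGcauuauugu
Rbfox3: aagaguaacUGCAUGcccucucug

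RefSeq promoter windows (GRCm38.p6, 300 bases each, mostly before the start site) were matched by symbol for 30 of the 38 genes. Celf4, Cpeb2, Khdrbs1, Khdrbs3, Msi1, Ptbp3, Rbfox2 and Stau2 are named only. The 63 windows of the set had a median GC content of 64.3%, against 61.3% for 11756 windows of detected genes, and 19.0 CG dinucleotides against 21. The cyclic AMP response element TGACGTCA, sought on both strands, was in windows of 3 of 30 genes (Celf3, Celf6 and Msi2; 10%, against 3.85% of detected genes). The GC box GGGCGG was in 23 of 30 (76.7%, against 70.2%) and TATAAA in 5 of 30 (16.7%, against 8.22%). The set has more windows per gene than detected genes do, which raises a share by gene. By window, GGGCGG was in 58.7% (62.6% for detected genes, the other direction), TATAAA in 9.52% (6.74%) and TGACGTCA in 11.1% (3.18%). Windows of a gene can overlap, so a share by window can count the same site repeatedly. The TGACGTCA windows of Celf3 overlap one another, and so do those of Msi2. Composition varied widely within the set. The single window of Rbfox3 held 4 CG dinucleotides at 53.0% GC and that of Qk held 57 at 81.7% GC. Qk had the highest GC content of the 63 windows, while 1 window of Mbnl1 was lowest, at 39.3%, and 1 of Cpeb3 held 0 CG dinucleotides. The windows of Rbfox3 and Qk, genes with 1 window each, are printed with CG in capitals to show a CG-poor and a CG-rich example. The Rbfox3 window is chr11:118760992-118761291 and the Qk window is chr17:10319312-10319611, both on the minus strand. Each lies inside its annotated gene, as bounded in GENCODE M21.
Rbfox3: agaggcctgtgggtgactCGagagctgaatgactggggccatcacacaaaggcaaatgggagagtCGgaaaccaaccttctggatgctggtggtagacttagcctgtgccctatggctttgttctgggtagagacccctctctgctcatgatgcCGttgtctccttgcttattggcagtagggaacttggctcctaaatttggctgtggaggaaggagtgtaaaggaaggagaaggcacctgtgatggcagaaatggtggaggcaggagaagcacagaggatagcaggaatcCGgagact
Qk: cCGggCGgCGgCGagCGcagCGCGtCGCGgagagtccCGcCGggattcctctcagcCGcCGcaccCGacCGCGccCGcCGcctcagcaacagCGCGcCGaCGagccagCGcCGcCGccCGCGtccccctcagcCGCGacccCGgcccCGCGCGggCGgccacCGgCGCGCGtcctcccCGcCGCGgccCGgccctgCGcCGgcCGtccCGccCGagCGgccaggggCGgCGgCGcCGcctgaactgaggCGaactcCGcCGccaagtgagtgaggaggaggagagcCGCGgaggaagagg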

How the data were processed

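The 2 deposited files hold raw counts per gene symbol, made by the authors with STAR 2.0.0e and HTSeq against mm10, per the submitters' processing notes. Which annotation was counted, and whether strand was used, is not given in the sources used here. Gene lines took 65.0% and 64.9% of all counted lines, and HTSeq's closing summary lines were left out of totals. The 38 genes and the comparison lists were chosen with earlier results of these data known.

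CPM was computed on gene lines. Lengths came from GENCODE M21 (GRCm38), as the union of exons or the longest transcript, and matched 95.5% of detected genes. The authors' annotation may differ. Ratios between libraries used TMM totals (edgeR 4.0.16), a prior count of 2, a mean CPM of at least 1 and 95% Clopper-Pearson intervals, which cover counting error only. The procedure was tested on simulated data, which held counting error only, changes larger than 1.5-fold and no TMM scaling. That check does not cover TMM or the spread between the libraries beyond counting error. With 1 group there was no test between conditions. DESeq2 1.42.0 size factors, other totals, lengths, filters and prior counts were tried, and a fit on GC content and exon length was added after seeing the data.

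All 38 genes are given. Of other lists, the 2 highest per kilobase, those past 2-fold and those at 0 counts could be named. Of marker lists, at most the 2 highest could be named. The markers at 0 counts, Arc, Egr3, Sox11, Srrm3, Ptbp1's and Nova2's overlapping genes and the printed sites were singled out after their values were seen.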

Additional observations from a re-analysis of the deposited data

Results flagged for a closer look

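Reads outside the gene lines were not used in any comparison. Signal of this kind was seen in 3 classes. Of everything counted, 16.7% (replicate 1) and 17.0% (replicate 2) fell on no annotated feature. A further 15.7% and 15.5% aligned to several places. Another 2.61% and 2.56% lay over several genes, the class that takes reads where exons overlap, as those of Nova2 and Ptbp1 do.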

How the results depend on the processing

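Of 100 alternative values, 74 stayed within the allowance (for counts, within 1.5 times the reported count), 24 moved and 2 fell below the fold called. Many of the 74 could not have moved. Family shares and paralogue ratios were allowed a change scaled to the gap between replicates 1 and 2, which dropping either replicate cannot exceed. Filters on level left the log2 ratios of Fmr1 and Cpeb2 as they were. The 74 is therefore no measure of robustness. The allowance for counts takes in the 8 of 11 families that kept their highest gene without length correction. The median level of the 38 genes was 113 to 124 CPM, and 11.4 to 13.6 CPM per kilobase, with either replicate left out. It was 21.3 CPM per kilobase on the longest transcript. Ptbp2 to Ptbp1 was 5.88 on the longest transcript and 7.51 without length correction, and the neuronal Elavl genes to Elavl1 1.12 without it (1.34 in replicate 1 and 0.900 in replicate 2, so the direction turned in replicate 2). With library totals alone 1 gene was at least 1.5-fold higher in replicate 2 and 1 in replicate 1 (9.63% and 18.1% of all genes), and Fmr1 was at 0.58. At 2-fold 1 gene remained beyond the threshold in replicate 2 (4.51% of all genes). With the GC and length fit, added after seeing the data, 2 genes were higher in replicate 2 and 1 in replicate 1 (12.2% and 11.9% of all genes), and Fmr1 was at 0.53. DESeq2 size factors, no filter, or a prior count of 0.5 gave 3 genes higher in replicate 2. Of all genes, 12.8%, 21.6% and 12.7% were higher at these 3 settings. No paired analysis was possible because there is a single group. A ratio between 2 libraries could not be recomputed without either. Depth limits Mbnl3, with 9 and 16 counts, and Msi1, with 76 and 62.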
